A study of Caenorhabditis elegans with 6 samples.

Results

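The right arm of chromosome V of Caenorhabditis elegans was taken as every window of 500 bp on chromosome V that starts above position 13946500, which is the right-hand outer part of 3 parts of equal length. It held 13947 of the 200566 windows into which the genome was divided. Of these, 11661 had at least 1 read in any of the 6 libraries and 4947 had enough reads to be tested. The choice used position alone and no measured value.

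RNA was sequenced from early embryo extracts after removal of ribosomal RNA. The 3 genotypes were wild-type worms (strain GW1), worms with a deletion of cec-4 (cec-4_delta, strain GW828) and worms with deletions of both met-2 and set-25 (met-2 set-25_delta_delta, strain GW638, called the double mutant below). Each genotype had 2 libraries, which per the labels came from independent biological replicates. Per the labels, all were raised in liquid culture at 20 °C, and growth to gravid adults took 60 to 65 h depending on the strain.

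MET-2 and SET-25 are histone methyltransferases that act in succession to methylate lysine 9 of histone H3, a mark of heterochromatin. In worm embryos this mark is concentrated on the outer arms of the autosomes, where repeats, pseudogenes and large gene families lie. The chromodomain protein CEC-4 sits at the inner nuclear membrane, where it binds the methylated lysine and so anchors the arms near the nuclear envelope. The right arm of chromosome V is rich in chemoreceptor, F-box and C-type lectin genes, and it also carries the 5S ribosomal RNA array.

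Window totals ran from 63512536 to 92014755 reads per library, of which 1403494 to 2038549 fell on the right arm. The ribosomal RNA repeat on chromosome I took between 9.93% and 38.0% of window reads and the mitochondrial genome between 9.41% and 17.4%, without a clear order by genotype. Levels are given as CPM, read counts scaled to a common library size by the trimmed mean of M values (TMM) of edgeR. The deleted genes matched the labels: met-2 stood at 400 and 357 CPM in wild-type and at 80.3 and 72.0 CPM in the double mutant, set-25 at 113 and 95.2 CPM against 28.3 and 23.0 CPM, and cec-4 stood at 282 and 272 CPM in wild-type and at 99.7 and 77.9 CPM in the cec-4 libraries. The 5 early embryo markers summed to 659 to 1068 CPM in every library, and the 6 vitellogenin genes of the adult intestine held 12 to 34 reads in all. Of 80 sperm genes, 29 were at 0 in every library, 21 were tested and 2 were higher in the double mutant than in wild-type. Their summed level was 110 and 116 CPM in wild-type, 111 and 121 CPM in the cec-4 mutant, and 125 and 131 CPM in the double mutant. The part of this difference in the results on the arm was not tested.

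Windows were assigned to genes only where their positions matched the WBcel235 annotation. In 23 of 23 blocks of 250 kb up to position 19500000, gene counts followed the sums of the windows at the annotated coding exons with no offset above 250 bp, and the median correlation across genes within a block was 0.988. The lowest was 0.700, in the block from 15500001 to 15750000 that holds F28F8.7, prde-1 and lgc-31, where the best offset was -250 bp, so the assignment of windows to genes is least certain there. In the 6 blocks beyond 19500000 the correlation without an offset was at most 0.685 and the best offset was between -4750 and -2250 bp, so windows there are given by position alone. Positions are those of the deposited window table throughout.

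Transcription of the right arm was low. The median level of its tested windows in wild-type was 0.559 CPM, against 0.711 CPM on the left arm and 0.985 CPM in the centre of the same chromosome. It was 0.837 CPM on the arms and 1.86 CPM in the centres of chromosomes I to IV. All of these are levels per window of equal length.

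In double-mutant embryos, 119 windows of the right arm were higher than in wild-type and 0 were lower, at an adjusted p under 0.05 in edgeR's quasi-likelihood test. The higher windows made up 2.41% of those tested on the arm, while over all 108036 windows tested in the genome 482 were higher, a share of 0.446%, and 26 were lower, a share of 0.0241%. On the left arm of chromosome V, 14 of 5272 tested windows were higher (0.266%), in the centre 13 of 6773 (0.192%), on the arms of chromosomes I to IV 287 of 46266 (0.620%) and on chromosome X 26 of 18117 (0.144%). The difference between these regions was not tested, since neighbouring windows share transcripts. Because the libraries are bulk extracts, more RNA per cell and more cells of a type that makes the RNA cannot be told apart.

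The 0 lower windows stood beside 75 windows below wild-type and 482 above it, of 4947 tested, at an unadjusted p under 0.05. On the left arm of chromosome V, 75 were below and 177 above of 5272 tested. The arms of chromosomes I to IV had 666 below and 1871 above of 46266. Their centres had 481 below and 335 above of 26634, and chromosome X had 460 below and 254 above of 18117. DESeq2 also called 0 lower and 146 higher windows on the right arm, and its counts over all windows are not given here. The number of higher windows fell to 58 without double-mutant replicate 1 and to 46 without double-mutant replicate 2. With each of the 6 libraries left out in turn, 37 of the 119 windows passed every time. Without wild-type replicate 1 there were 4 lower windows, and without wild-type replicate 2 there were 2. The number of higher windows was 77 when the window counts were scaled by the gene table's library sizes, 180 with the replicate number as a block, and 234 without a filter on low counts.

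In every one of the 119 windows both double-mutant libraries lay above both wild-type libraries, a separation that 14.2% of all tested windows showed in this direction. The log2 fold changes of the 119 ran from 1.20 upwards with a median of 2.55, against a median of 0.07 over all tested windows of the arm and of -0.03 over all tested windows. A log2 fold change over 2 was fitted in 93 windows and one over 4 in 22 windows.

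Most of the higher windows were weakly transcribed in wild-type. Their mean levels had a median of 0.320 CPM in wild-type, 0.357 CPM in the cec-4 mutant and 1.72 CPM in the double mutant. In wild-type 30 of them reached 1 CPM, and in the double mutant 86 did. In 11 windows the wild-type libraries held 3 reads or fewer together, and 27 windows passed the low-count filter only through the double-mutant libraries, so these 27 had to differ to be tested at all.

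**Figure D1:**
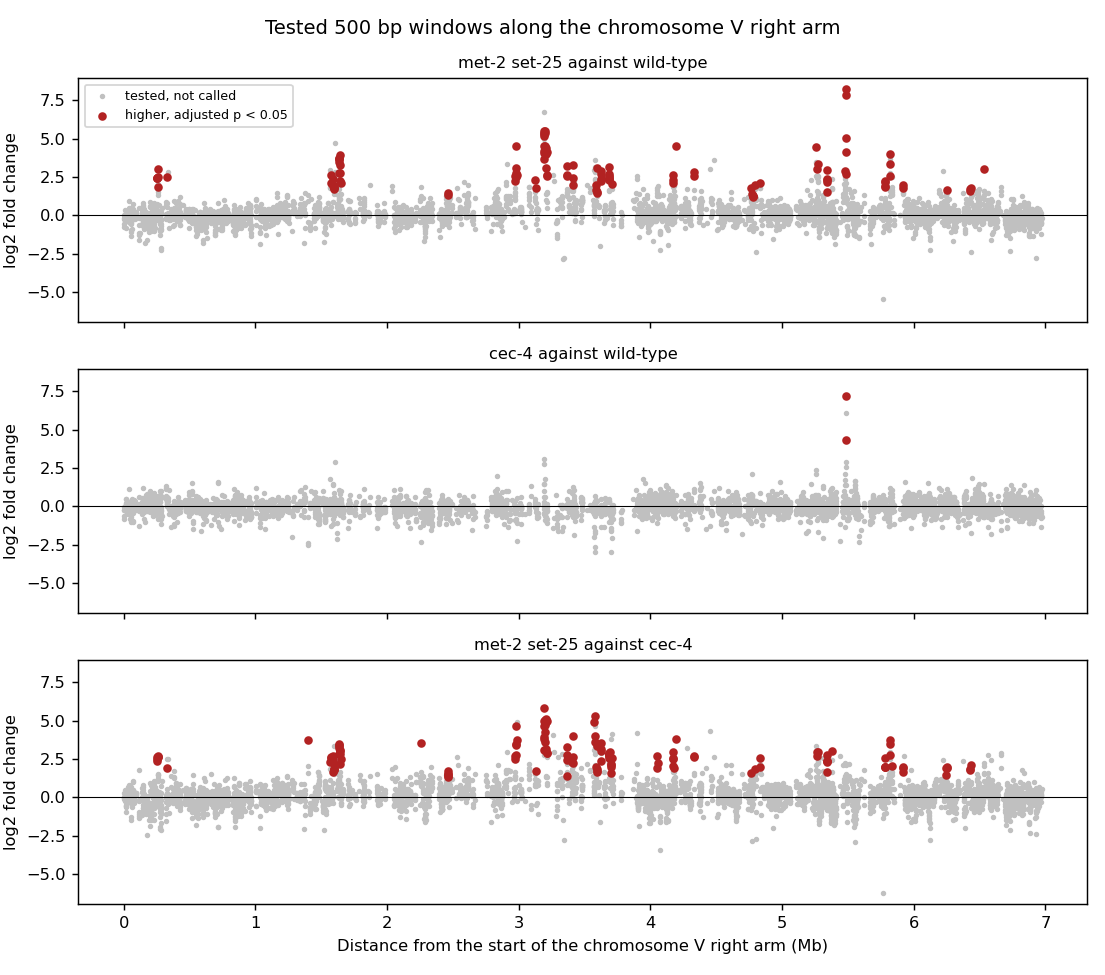
Log2 fold change of each tested 500 bp window of the right arm of chromosome V (y axis) against its distance from the start of the arm in Mb (x axis), for each of the 3 comparisons. Coloured points passed an adjusted p under 0.05 in edgeR: 119 windows for the double mutant against wild-type, 2 for cec-4 against wild-type and 136 for the double mutant against cec-4. Fitted values of windows with 3 or fewer wild-type reads depend on the small count edgeR adds.

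The summed level of the 119 windows was 225 and 181 CPM in wild-type, 236 and 196 CPM in the cec-4 mutant, and 740 and 870 CPM in the double mutant. This sum rests on windows chosen by their difference and is a description. It amounted to 0.992% and 0.884% of the arm's reads in wild-type, 1.10% and 1.02% in the cec-4 mutant, and 3.08% and 3.74% in the double mutant. The arm as a whole took 3.67% and 3.50% of window reads outside the ribosomal repeat and the mitochondrial genome in wild-type, 3.54% and 3.38% in the cec-4 mutant, and 3.85% and 3.81% in the double mutant. Both double-mutant values were above all others, but with 2 libraries against 2 an exact permutation test cannot give a p below 0.33. Nor did they separate with all window reads as denominator. The shares were then 2.39% and 1.93% in wild-type, 2.17% and 1.77% in the cec-4 mutant, and 2.18% and 2.77% in the double mutant.

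The higher windows were grouped into neighbouring stretches. The 119 windows formed 60 runs of adjoining windows: 32 single windows, 15 runs of 2, 3 runs of 3 and 10 runs of 4 or more, which together held 48 windows. The longest run was 8 windows. When a run was allowed to bridge 1 window that did not pass, there were 49 runs and the longest held 13 windows. Every window of both longest runs passed the low-count filter only through the double-mutant libraries, so their length has no support from the test. Of the 60 runs, 7 held only windows of that kind. Joining higher windows within 10000 bp of each other gave 31 clusters, of which 11 had at least 5 windows and held 76 of the 119.

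**Figure D2:**
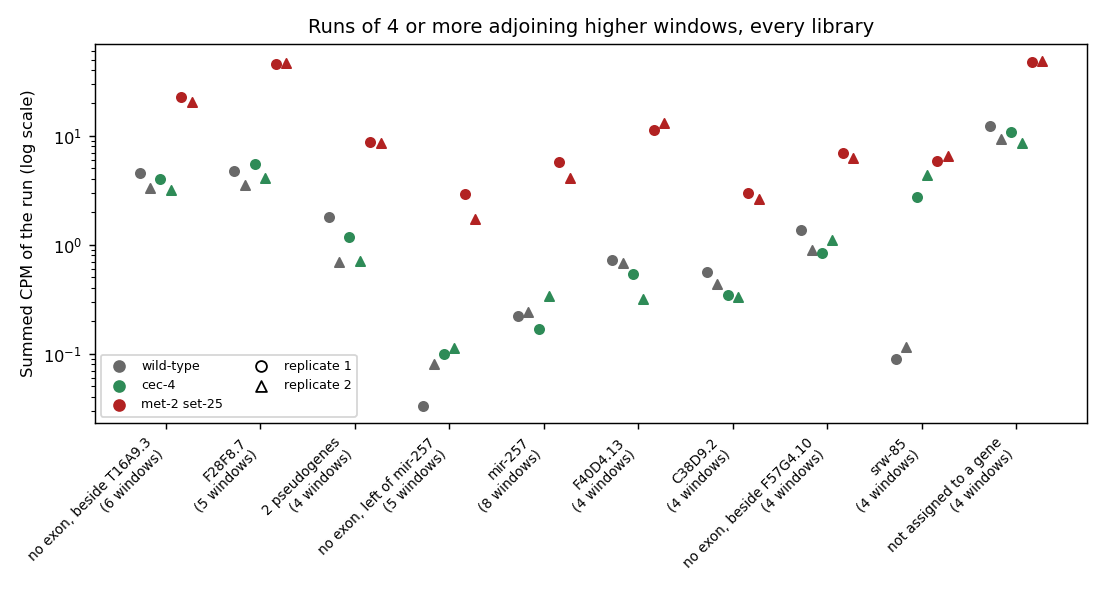
Summed CPM (log axis) of each of the 10 runs of 4 or more adjoining higher windows in each of the 6 libraries, with points coloured by genotype. In all 10 runs the double-mutant libraries lie above the wild-type libraries. In the run over srw-85 the cec-4 libraries are also above wild-type.

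The longest stretch lay in a gene-poor interval. Between positions 17137501 and 17144500 of chromosome V, 13 of 14 windows were higher. All 14 passed the low-count filter only through the double-mutant libraries, since no wild-type or cec-4 library exceeded 0.0883 CPM in any of them. They could therefore be tested only because they were high in the double mutant, and the stretch is described here without support from the test. The first 5 windows, up to 17140000, overlapped no annotated gene, and the 8 windows from 17140501 overlapped no exon other than that of the microRNA gene mir-257. Together the 14 windows held 23 and 31 reads in wild-type, 25 and 38 in the cec-4 mutant, and 523 and 460 in the double mutant. The 2 double-mutant libraries were far above the other 4, which overlapped one another. The summed level was 0.307 ± 0.0722 CPM in wild-type, 0.379 ± 0.142 CPM in the cec-4 mutant and 7.52 ± 2.04 CPM in the double mutant (SD, n = 2 each), a 24.5-fold difference between the double mutant and wild-type. The number of higher windows in the stretch was 1 without double-mutant replicate 1 and 7 without double-mutant replicate 2, and 12 to 14 when any other library was left out.

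Within that stretch 6 windows were among the 10 of largest fold change on the arm. Window 17142501–17143000 held 2 and 0 reads in wild-type, 2 and 1 in the cec-4 mutant, and 44 and 33 in the double mutant. The ratio of the double mutant to wild-type was 53.5, with a 95% counting interval of 13.6 to 426. Window 17139001–17139500 held 1 and 2, 0 and 2, and 60 and 40 reads in the same order, a ratio of 45.5 with a counting interval of 14.6 to 217. Such windows had almost no reads in wild-type or cec-4, and they were picked for their large fold change. The intervals cover counting error only, so they are not limits of the size of the change. The other 4, which start at 17137501, 17138501, 17139501 and 17142001, had 1 or 2 wild-type reads in all and ratios between 42.5 and 57. Their counting intervals lay within 8.22 to 2289. The 5S ribosomal RNA and SL1 RNA genes of the arm covered 24 windows, which together held 21 to 31 reads per library. A single one of these windows had enough reads to be tested, and its log2 fold change was -0.09.

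**Figure D3:**
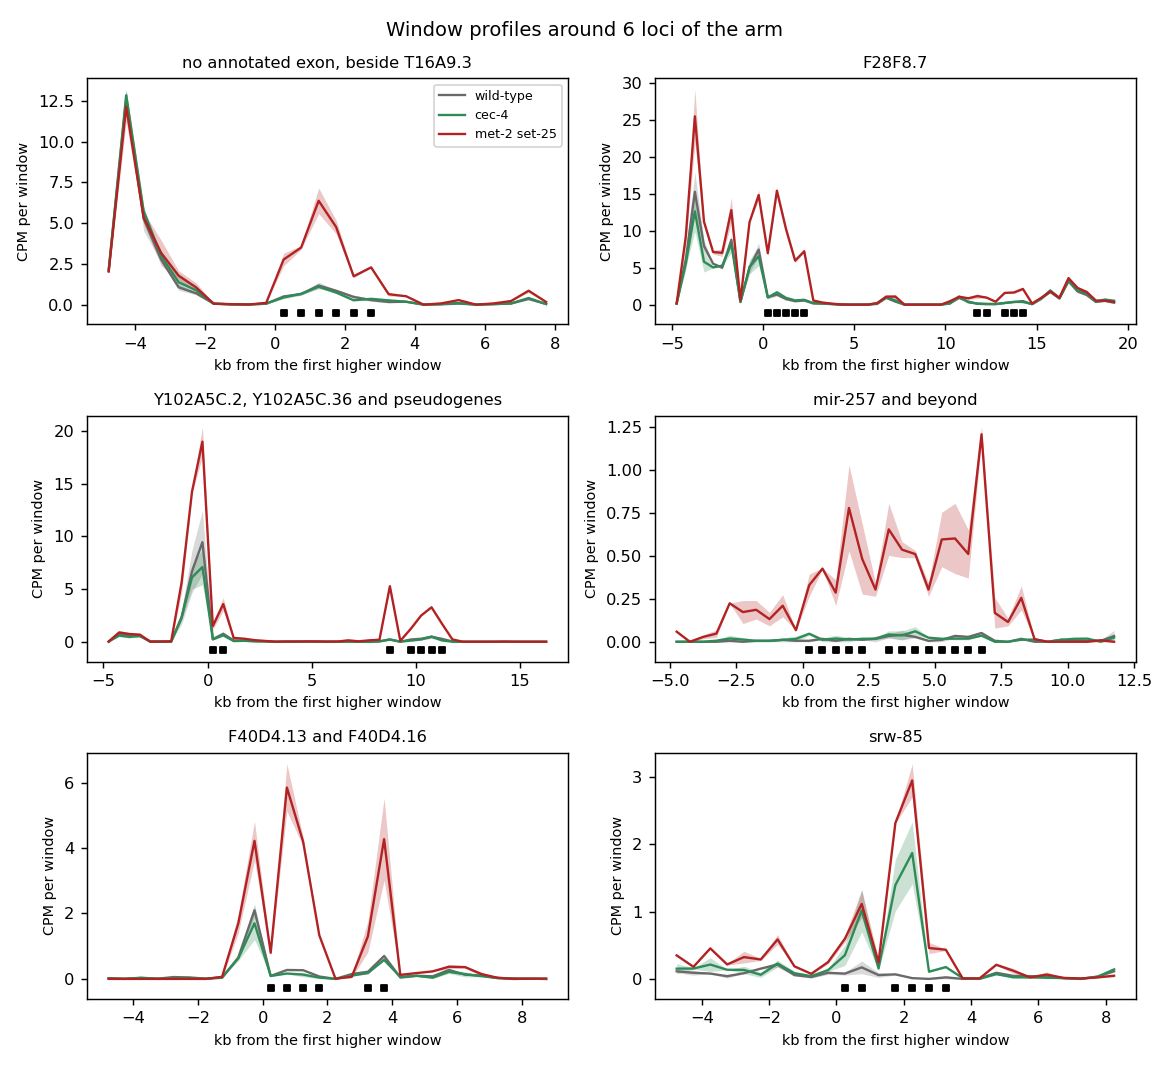
CPM of each 500 bp window (y axis) against the distance in kb from the first higher window (x axis) at 6 loci of the arm. Lines are genotype means, bands span the 2 libraries and black squares mark higher windows of the double mutant (met-2 set-25) against wild-type. At the gene-poor stretch with mir-257 the double-mutant line alone leaves the baseline, whereas at srw-85 the cec-4 line does too.

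A further 2 long runs overlapped no annotated gene. The run of 6 windows at 14201001–14204000 lies 3300 bp from atfs-1, which encodes a transcription factor of the mitochondrial stress response, and 1513 bp from T16A9.3. It held 409 and 288 reads in wild-type, 357 and 252 in the cec-4 mutant, and 1312 and 1544 in the double mutant. Its level was 3.94 ± 0.865 CPM in wild-type and 21.4 ± 1.46 CPM in the double mutant, a 5.45-fold difference, with window log2 fold changes of 1.87 to 3.01. The gene T16A9.3 itself had a log2 fold change of 1.34 and did not pass (adjusted p = 0.315).

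The run of 4 windows at 17631501–17633500 lies 1285 bp from F57G4.10 and 4481 bp from an annotated pseudogene. It held 122 and 78 reads in wild-type, 75 and 87 in the cec-4 mutant, and 406 and 476 in the double mutant. The level was 1.13 ± 0.323 CPM in wild-type and 6.62 ± 0.469 CPM in the double mutant, a 5.87-fold difference. A run of 2 windows at 17634001–17635000, separated from it by 1 window, rose from 0.797 ± 0.0830 to 4.29 ± 0.0642 CPM and overlapped no gene either.

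Other long runs followed single protein-coding genes. F28F8.7, on the minus strand at 15578707–15590617, was crossed by a run of 5 windows at 15578501–15581000 that also touched the edge of F28F8.9. That run held 427 and 306 reads in wild-type, 494 and 324 in the cec-4 mutant, and 2643 and 3508 in the double mutant. Its level was 4.14 ± 0.860 CPM in wild-type, 4.79 ± 0.994 CPM in the cec-4 mutant and 45.8 ± 0.774 CPM in the double mutant, an 11.1-fold difference from wild-type. All 5 windows had adjusted p between 6.2e-05 and 0.00056. A second run of 2 windows lay at 15590001–15591000, at the far end of the same gene, and rose from 0.181 ± 0.0112 to 2.11 ± 0.501 CPM, although 1 of its windows passed the low-count filter only through the double mutant. It was followed by 3 higher windows over a pseudogene on the opposite strand (WBGene00007165), so reads of the gene and of the pseudogene cannot be told apart where they overlap.

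F40D4.13, on the minus strand at 17155874–17157254, was covered by a run of 4 windows at 17155501–17157500. The run held 65 and 59 reads in wild-type, 48 and 25 in the cec-4 mutant, and 659 and 988 in the double mutant. It rose 17.3-fold, from 0.702 ± 0.0295 to 12.2 ± 1.25 CPM, and the 2 higher windows at 17158501–17159500 over the non-coding RNA gene F40D4.16 rose from 0.914 ± 0.192 to 5.57 ± 2.45 CPM. C38D9.2, on the plus strand at 17567150–17571742, had a run of 4 windows at its right end with 51 and 38 reads in wild-type, 31 and 26 in the cec-4 mutant, and 174 and 200 in the double mutant. Its level was 0.503 ± 0.0908 CPM in wild-type and 2.81 ± 0.238 CPM in the double mutant. Of the windows of these long runs, 2 of 4 at F40D4.13 and 3 of 4 at C38D9.2 passed the low-count filter only through the double mutant. In both runs the double-mutant libraries were clear of the other 4.

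Annotated pseudogenes were also among the higher loci. The run of 4 windows at 16928001–16930000 covered 2 neighbouring pseudogenes (WBGene00014954 and WBGene00014955) and held 163 and 60 reads in wild-type, 106 and 56 in the cec-4 mutant, and 512 and 654 in the double mutant. Its level was 1.25 ± 0.792 CPM in wild-type and 8.71 ± 0.0890 CPM in the double mutant. The wild-type libraries differed widely from each other, but both stayed below the double mutant. Just to its left, window 16927001–16927500 lies on the protein-coding gene Y102A5C.36. It held 25 and 15 reads in wild-type, 16 and 19 in the cec-4 mutant, and 295 and 416 in the double mutant, with a log2 fold change of 4.54 (SE 0.35, adjusted p = 5.47e-05).

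The single window 17539001–17539500 over linc-14, a long intergenic non-coding RNA gene, rose 8.45-fold from 4.73 ± 1.16 CPM. It held 499 and 339 reads in wild-type, 375 and 283 in the cec-4 mutant, and 2109 and 3316 in the double mutant, a log2 fold change of 3.08 (SE 0.26, adjusted p = 9.14e-05). The neighbouring gene C18D4.6, on the minus strand, had 4 higher windows. The last of the 10 long runs, at 19725501–19727500, was not assigned to a gene. It rose 4.45-fold, from 10.8 ± 2.02 to 48.0 ± 0.379 CPM, and had the highest level of the 10 in all 3 genotypes.

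The annotation of the higher windows was compared with that of all tested windows in the position-matched portion of the arm, which held 105 higher and 3624 tested windows. Protein-coding exons held 52 of the 105 (49.5%) and 71.6% of the tested windows. Windows with no annotated gene held 29 (27.6%) against 9.55%, pseudogene exons 13 (12.4%) against 4.28%, non-coding RNA exons 7 (6.67%) against 1.90%, and introns without an exon 4 (3.81%) against 12.7%. Put the other way, 8.38% of tested windows with no annotated gene, 8.39% of those on pseudogene exons and 10.1% of those on non-coding RNA exons were higher, compared with 2.0% on protein-coding exons. Both comparisons include windows that passed the low-count filter only through the double mutant. Without them 80 higher and 3303 tested windows were left. Windows with no annotated gene then held 16 of the 80 against 8.75% of tested windows, and 5.54% of them were higher, compared with 10.2% on pseudogene exons, 9.68% on non-coding RNA exons and 1.71% on protein-coding exons. These are counts of windows that share transcripts, and no test was made of them.

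Of the 51 runs in the position-matched portion, 41 touched an annotated exon and 10 did not. A gene of the deposited gene table was touched by 27 runs and a gene that was itself higher by 18. The remaining 24 runs, with 52 windows, overlapped no annotated exon of a gene of that table. Introns were not counted as overlap, and 669 genes without a known position could not be matched to runs. Whether the gene counts hold reads of these runs was therefore not settled.

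The higher windows were spread unevenly along the arm. In bins of 500 kb the largest number was 27 of 168 tested windows (16.1%) between 16946501 and 17446500. The bin that starts at 15446501 had 18 of 267, the bin that starts at 17446501 had 17 of 222, and the bins that start at 14446501 and 14946501 had 0 of 468 and 0 of 320. The order by number depends on windows that passed the low-count filter only through the double mutant. Without these, the bin that starts at 15446501 had 16 higher of 234 tested windows. The bin that starts at 17446501 had 14 of 185 and the bin that starts at 16946501 had 11 of 119. As a share of tested windows, the bin that starts at 16946501 was still the highest. In bins of 100 kb, 26 of 70 had at least 1 higher window, and the largest number was 15, in the bin from 17046501 to 17146500 that holds mir-257. Of those 15, 13 are in the stretch that was testable only through the double mutant. Without such windows the largest number in a 100 kb bin was 9, between 15546501 and 15646500.

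The bin between 16946501 and 17446500 also had the fewest tested windows. Leaving out windows that passed the low-count filter only through the double-mutant libraries, 119 tested windows remained in it, of which 11 were higher. Their median log2 fold change was 0.57 in the double mutant against wild-type, and 100 of 119 were positive, while in cec-4 against wild-type the median was -0.08. The summed level of the bin was 295 and 222 CPM in wild-type, 272 and 201 CPM in the cec-4 mutant, and 428 and 392 CPM in the double mutant. Both double-mutant libraries lay above the other 4. The bin was singled out for its higher windows and the 119 include 11 of these, so its values are partly set by that choice. Its neighbouring windows share transcripts, and no test was made of the bin.

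**Figure D4:**
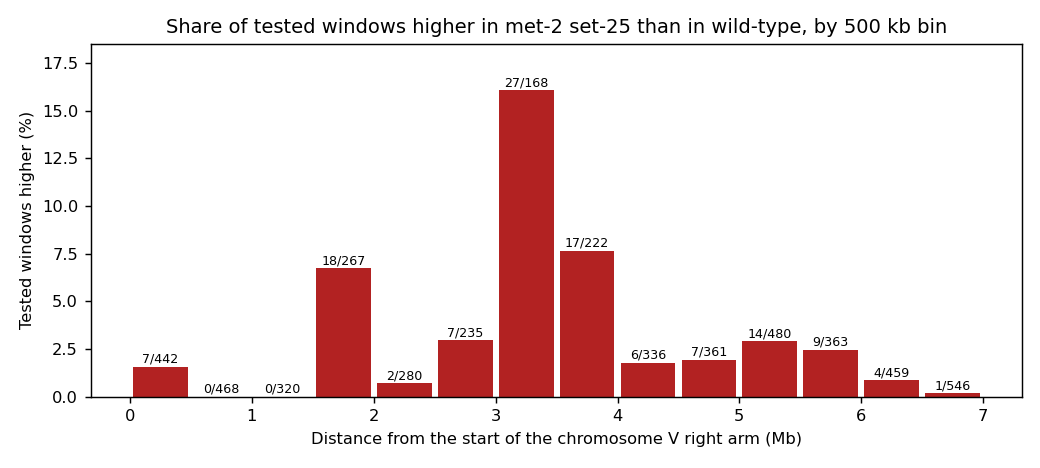
Share of tested windows that were higher in the double mutant than in wild-type (y axis, percent) in 500 kb bins of the right arm of chromosome V, placed by distance from the start of the arm in Mb (x axis). Labels give higher over tested windows, and the tallest bar stands for 27 of 168 windows, and 11 of the 27 passed the low-count filter without the double-mutant libraries.

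In cec-4 embryos, 2 windows of the right arm were higher than in wild-type. They were also the only windows called in the whole genome in cec-4 against wild-type, a share of 0.00185% of those tested. Both lie in srw-85, a gene of the srw family of chemoreceptors, on the minus strand at 19429387–19431136. The arm had 0 lower windows in edgeR and in DESeq2. At an unadjusted p under 0.05, 62 of 4947 tested windows of the arm were higher and 71 lower in cec-4 than in wild-type. On the left arm of chromosome V, 52 of 5272 were higher and 73 lower at that p. The arms of chromosomes I to IV had 440 higher and 332 lower of 46266. Their centres had 132 higher and 255 lower of 26634, and chromosome X had 148 higher and 189 lower of 18117.

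In window 19430001–19430500 of srw-85 the wild-type libraries held 1 and 1 reads, the cec-4 libraries 127 and 185, and the double-mutant libraries 158 and 242. The wild-type libraries were apart from the other 4. The ratio to wild-type was 165 in cec-4, with a counting interval of 44.7 to 1351 (adjusted p = 0.000432), and 261 in the double mutant, with a counting interval of 72.5 to 2183 (adjusted p = 2.29e-05). Both this window and the next were below the low-count filter in wild-type and passed it through the mutant libraries. In the neighbouring window 19429501–19430000 the counts were 7 and 5 in wild-type, 91 and 141 in the cec-4 mutant, and 135 and 176 in the double mutant. The log2 fold changes were 4.33 in cec-4 (adjusted p = 0.0078) and 5.06 in the double mutant (adjusted p = 0.000127).

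A further 4 windows of the locus had more reads in both mutants than in wild-type, but passed in the double mutant alone. Window 19430501–19431000 had 0 reads in both wild-type libraries, 9 and 9 in the cec-4 mutant, and 22 and 41 in the double mutant, where it was at least 13.5-fold higher than a floor of 3 reads per wild-type library. It passed the low-count filter only through the double-mutant libraries. Window 19431001–19431500, which also touches a pseudogene, held 0 and 4, 17 and 13, and 26 and 32 reads. Beyond the gene's 3' end, the windows that start at 19428001 and 19428501 had log2 fold changes of 2.90 and 2.69 in the double mutant (adjusted p = 0.0331 and 0.0337), and of 2.12 and 2.56 in cec-4, where they did not pass. The run of 4 windows over the gene summed to 0.102 ± 0.0187 CPM in wild-type, 3.55 ± 1.19 CPM in the cec-4 mutant and 6.17 ± 0.459 CPM in the double mutant.

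The locus did not pass in the direct comparison of the mutants: the log2 fold changes of its windows between the double mutant and cec-4 ran from 0.13 to 2.10. That comparison shares its libraries with both others. In the 119 windows higher in the double mutant, the median log2 fold change of cec-4 against wild-type was -0.05, beside 2.55 for the double mutant against the same wild-type libraries. The 119 were chosen for being higher in the double mutant, so the value of 2.55 is partly set by that choice and the medians do not compare the mutants evenly.

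Compared with cec-4 embryos, double-mutant embryos had 136 higher windows on the arm, 2.75% of those tested, against 535 of all tested windows (0.495%). There were 0 lower windows in edgeR, against 0.0296% of all tested windows, and 1 in DESeq2. At an unadjusted p under 0.05, 598 of 4947 tested windows of the right arm were higher and 236 lower. On the left arm of chromosome V, 266 of 5272 were higher and 242 lower at that p. The arms of chromosomes I to IV had 2585 higher and 1960 lower of 46266. Their centres had 736 higher and 1148 lower of 26634, and chromosome X had 484 higher and 1052 lower of 18117. The 136 windows formed 68 runs, of which 10 had 4 or more windows, and the longest was the 8 windows at 17140501–17144500. All 8 passed the low-count filter only through the double-mutant libraries, so the length of this run has no support from the test. The smallest p belonged to window 17156001–17156500 in F40D4.13, with 24 and 24 reads in wild-type, 16 and 12 in the cec-4 mutant, and 299 and 497 in the double mutant (log2 fold change 5.13 against cec-4, SE 0.34, adjusted p = 1.75e-05). The next were those of Y102A5C.36 (log2 fold change 4.66), linc-14 (3.37), F28F8.7 at 15580001 (3.38) and a second window of F40D4.13 at 17156501 (4.95).

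The count against cec-4 moved with single libraries. It was 76 without double-mutant replicate 1, 62 without double-mutant replicate 2, 59 without cec-4 replicate 2, 237 without wild-type replicate 1 and 236 without wild-type replicate 2. Lower windows numbered 16 without wild-type replicate 1, 16 without wild-type replicate 2 and 4 without cec-4 replicate 1.

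Gene counts of the same libraries gave a second readout of the arm. Of its 1626 genes, 703 were tested, and 18 were higher (2.56%) and 0 lower in the double mutant than in wild-type, against 92 of 13951 genes overall (0.659%) that were higher and 4 (0.0287%) that were lower. At an unadjusted p under 0.05, 86 genes of the arm were higher and 9 lower, and DESeq2 called 31 higher and 0 lower. Counts over all tested genes at these settings are not given here, so no genome-wide share stands beside them. Without double-mutant replicate 1 the number of higher genes was 5, without double-mutant replicate 2 it was also 5, and without wild-type replicate 1 it was 12. In cec-4 the only gene of the arm, and of the genome, to pass was srw-85 (a share of 0.00717%), and against cec-4 19 genes of the arm were higher in the double mutant (0.609% of all tested genes were higher). The last number was 4 without double-mutant replicate 1, 3 without double-mutant replicate 2, 6 and 4 without cec-4 replicates 1 and 2, and 31 without wild-type replicate 2.

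The gene of largest change was srw-85, with 5 and 4 reads in wild-type, 156 and 216 in the cec-4 mutant, and 241 and 319 in the double mutant. In wild-type this gene was below the low-count filter of about 0.251 CPM, so it could be tested only through the mutant libraries. Its log2 fold changes against wild-type were 6.22 in the double mutant (adjusted p = 0.00204) and 5.54 in cec-4 (adjusted p = 0.025). The cec-4 call did not hold without wild-type replicate 1 or without either double-mutant replicate, nor under upper quartile scaling, each of which left 0 genes. F28F8.7 rose from 5.22 ± 0.633 to 69.0 ± 1.15 CPM, F40D4.13 from 1.19 ± 0.0243 to 20.8 ± 1.46 CPM and Y102A5C.36 from 0.463 ± 0.149 to 8.71 ± 0.370 CPM (SD, n = 2 each). In these 3 genes the cec-4 means were 6.86, 0.680 and 0.467 CPM. Together with srw-85 and F55C9.3 they passed in each of the 6 fits with a library left out, whereas the other 13 higher genes lost the call in at least 2 of those fits.

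Near the right end of the position-matched portion, F55C9.3 and F55C9.5 both rose, whereas the F-box gene fbxb-57 that lies between them had a log2 fold change of 0.31 and did not pass. F55C9.3, on the minus strand at 19287009–19288173, held 576 and 406 reads in wild-type, 580 and 452 in the cec-4 mutant, and 2096 and 3682 in the double mutant (log2 fold change 2.84, SE 0.24, adjusted p = 0.00312). F55C9.5, on the same strand at 19290574–19293125, held 302 and 190, 319 and 210, and 791 and 1438 reads (log2 fold change 2.46, SE 0.30, adjusted p = 0.0156). Both double-mutant libraries exceeded all others in both genes, and a pseudogene lies opposite F55C9.5.

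Several genes with known roles were among the 18. The gene prde-1, which is needed to make piRNA precursors in the germ line, rose from 9.59 ± 1.79 to 29.7 ± 6.22 CPM (log2 fold change 1.63, adjusted p = 0.0378), although it overlaps the globin gene glb-14 on the opposite strand. The F-box genes fbxa-136 and fbxa-114, whose family supplies adaptors of ubiquitin ligases, had log2 fold changes of 2.46 and 1.52 (adjusted p = 0.0267 and 0.0484). The acyltransferase-like gene oac-49 had a log2 fold change of 3.00 and dhcr-7 one of 2.67, but both overlap other genes on the annotation. Against cec-4 the synaptonemal complex gene syp-1 also rose, from 55.3 ± 6.69 to 137 ± 20.9 CPM (adjusted p = 0.0364); against wild-type its log2 fold change of 1.19 did not pass (adjusted p = 0.0517), although 2 single windows of the gene, at 16405501 and 16407001, were higher (adjusted p = 0.0439 and 0.0185). The ligand-gated ion channel gene lgc-31, which overlaps 5 other annotated genes, had a log2 fold change of 2.14 against cec-4 (adjusted p = 0.0491), and a run of 2 of its windows was higher than in wild-type (adjusted p = 0.0375 and 0.0421), of which 1 passed the low-count filter only through the double mutant.

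The remaining members of the 18 were Y116F11A.1, F47H4.2, C38D9.2, K02E2.6, Y37H2A.10, C18D4.6 and Y102A5C.2. Their log2 fold changes in the double mutant against wild-type ran from 1.42 for C18D4.6 to 3.88 for Y37H2A.10. The latter had 3 reads in each wild-type and cec-4 library and 22 and 55 reads in the double mutant, and passed the filter only through the latter. Of the 14 higher genes in the position-matched portion, 13 held at least 1 higher window and fbxa-136 held 0.

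**Figure D5:**
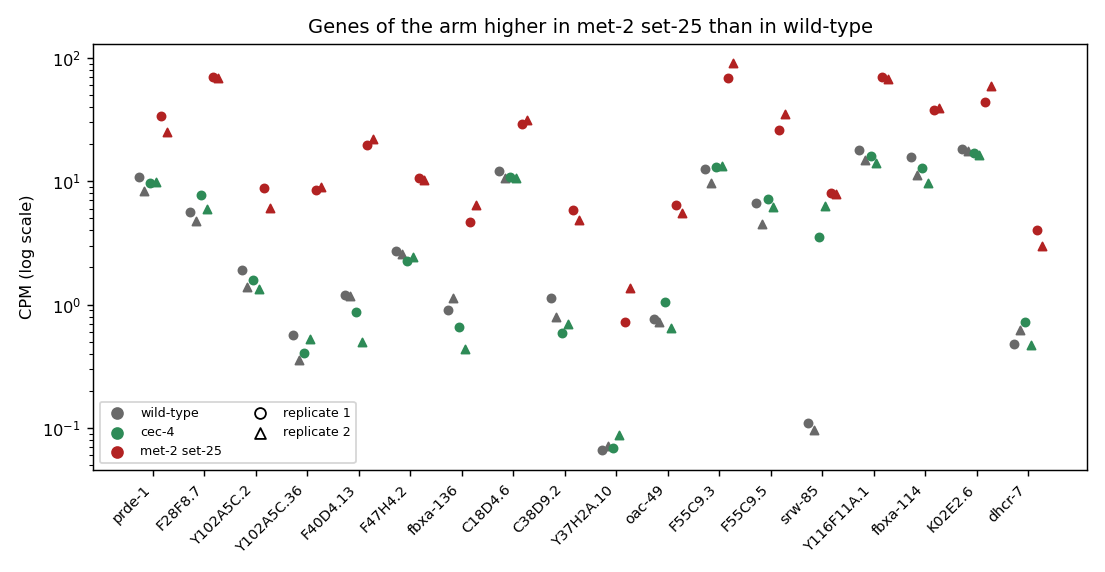
CPM (log axis) of the 18 genes of the arm that were higher in the double mutant than in wild-type, with 1 point for each of the 6 libraries, coloured by genotype. At srw-85 the cec-4 points lie near those of the double mutant, while at F28F8.7 and F40D4.13 they lie near wild-type.

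The gene families of the arm differed in how many members had enough reads to be tested. Of 328 chemoreceptor genes on the arm, 32 were tested and srw-85 alone was higher in the double mutant, while 17 had a positive log2 fold change and the median was 0.08. At an unadjusted p under 0.05, 6 of them were higher and 2 lower, and DESeq2 called 1 higher. Of 76 F-box, MATH and BTB genes, 50 were tested and 2 were higher, and 42 were positive, with a median of 0.36. In this family 9 were higher and 3 lower at an unadjusted p under 0.05, and DESeq2 called 2 higher. Of 60 C-type lectin genes, which encode carbohydrate-binding proteins, 24 were tested and 0 passed in edgeR, with 7 higher and 1 lower at an unadjusted p under 0.05 and 1 higher in DESeq2. Of these lectin genes 17 were positive and the median was 0.78. Of 48 nuclear hormone receptor genes, 32 were tested, 0 passed in either tool, 1 was higher at an unadjusted p under 0.05, and 16 were positive. For comparison, the median over the 703 tested genes of the arm was 0.07 with 423 positive, and over all tested genes it was -0.03. The 4 tested histone genes, 7 detoxification enzyme genes, 3 chaperone genes and 2 collagen genes of the arm had 0 passing members in either tool and 0 at an unadjusted p under 0.05. Members of these families can share reads with near copies, so single values are uncertain.

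Stretches that were highly transcribed in wild-type served as a reference of level. They were the 5 longest runs of windows above the 95th percentile of wild-type, 14.3 CPM, and covered bmk-1, which encodes a kinesin of the mitotic spindle, mcm-3 of the replicative helicase, the histone genes his-1 to his-4, vps-39 and the chaperone gene hsp-90. The run over bmk-1 summed to 337 ± 45.6 CPM in wild-type, 330 ± 48.7 CPM in the cec-4 mutant and 364 ± 36.3 CPM in the double mutant, and the genotypes overlapped. Over the 5 runs the ratio of the double mutant to wild-type was between 1.04 and 1.17, and the log2 fold changes of their windows were between -0.05 and 0.37. The run at the histone genes had 5045 ± 641 CPM in wild-type, 3908 ± 901 CPM in the cec-4 mutant and 5696 ± 149 CPM in the double mutant.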

How the data were processed

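Per the labels, 5 µg of total RNA was depleted of ribosomal RNA with Ribo-Zero, 50 ng of it entered ScriptSeq v2 libraries, and 3 samples were pooled for a run of 51 cycles. The authors deposited raw read counts per 500 bp window and per gene. Not given in the sources used here are the aligner, genome build, use of strand and handling of reads with several matches. The authors' normalized gene values were not used.

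Counts of all windows and of all genes were each tested with edgeR 4.0.16 (R 4.3.3): filterByExpr by genotype, TMM scaling, 1 quasi-likelihood fit over the 6 libraries, and Benjamini-Hochberg adjustment over 108036 windows or 13951 genes, at a threshold of 0.05. The SE given with a log2 fold change is its absolute value over the square root of the F statistic. Errors after ± are SDs over 2 libraries. Counting intervals (95%) and the floor of 3 reads cover counting error only. DESeq2 1.42.0, other scalings, filters and left-out libraries were alternatives. The steps were tested on simulated data.

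The arm, the gene lists and the tests were chosen with earlier results of these data known. Named windows were all runs of at least 4 adjoining higher windows, the 10 of largest fold change with a mean count of at least 10 in the higher genotype and no overlap of replicates, all windows called in cec-4, the 5 of smallest p against cec-4, and the 5 longest high-level runs. The genes named were all those called on the arm. Linc-14's neighbours, the run at 17634001, the runs beside F28F8.7 and F40D4.13, and T16A9.3 were added as context after their values were seen. Bins of 500 kb were used beside the 100 kb bins first planned because few windows of a 100 kb bin were tested.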

Additional observations from a re-analysis of the deposited data

How the results depend on the processing

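In the double mutant against wild-type the 119 higher windows became 77 with gene-table scaling, 234 without a low-count filter, 61 at an adjusted p under 0.01 and 64 as 2500 bp bins, where sums of 5 windows were tested; leaving out each library gave 46 to 157. The 0 lower windows became 2 without a filter and 0 to 4 with a library left out. The 2 windows of cec-4 became 1 with gene-table scaling, 4 without a filter, 1 as 2500 bp bins and 1 with only the 2 genotypes compared in the fit. In the double mutant against cec-4 the 136 higher windows became 80, 258, 75 at the stricter threshold and 57 as bins, and 216 with only the 2 genotypes in the fit, with 59 to 237 when a library was left out; the 0 lower became 17 without a filter, 1 with DESeq2, 6 with only the 2 genotypes, and 0 to 16 with a library left out. The cause of these moves was not tested. With a library left out, the remaining library of that genotype was assumed to vary like the other genotypes.

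For genes, the 18 higher became 31 with DESeq2 and 32 without a filter, and 5 to 20 with a library left out. The 1 gene of cec-4 became 0 with upper quartile scaling and 0 to 1 with a library left out. Against cec-4 the 19 higher became 35 with DESeq2, 37 without a filter and 3 to 31 with a library left out, and the 0 lower became 3, 1 and 0 to 1. With all windows as denominator the mean share of the arm was 2.16% in wild-type, 1.97% in the cec-4 mutant and 2.48% in the double mutant, against 3.58%, 3.46% and 3.83%. The libraries of the genotypes overlapped with that denominator.

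With the replicate number as a block, 180 windows were higher in the double mutant than in wild-type, 5 were lower against cec-4, and 44 genes were higher and 4 lower against cec-4. The numbers are only shared labels: the deviations of same-numbered libraries correlated at 0.38, 0.12 and 0.034 in the 3 pairs of genotypes, so the pairing was not established.

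Over 96 log2 fold changes of named windows, 1378 of 1532 alternative values kept their call, 154 did not pass and 0 changed direction. The named windows were chosen by their calls in these same counts, so the share that kept the call is partly set by that choice. Gene-table scaling shifted the median log2 fold change of all windows by -0.09, 0.11 and -0.20 in the double mutant against wild-type, cec-4 against wild-type and the double mutant against cec-4. Depth limits the weakest windows: a filter needs about 0.117 CPM, and windows at or near 0 reads in wild-type give wide ratios.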

Other observations

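The tested window of lowest log2 fold change on the arm in the double mutant against wild-type was 19715501–19716000, at -5.47 (SE 2.24). It held 11 and 1 reads in wild-type, 3 and 16 in the cec-4 mutant, and 0 and 0 in the double mutant, and it did not pass in edgeR (adjusted p = 0.92).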
